A study of Homo sapiens with 6 samples.

Results

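Transcripts of 10 genes that run the G1 phase of the cell cycle were described in H69AR cells given Supinoxin: the D-type cyclins CCND1, CCND2 and CCND3, the E-type cyclins CCNE1 and CCNE2, the kinases CDK2, CDK4 and CDK6, and the pocket proteins RB1 and RBL1. They were chosen by name and matched by symbol to 10 of the 60605 Ensembl gene identifiers in the counts table. H69AR is an established small cell lung cancer line derived from NCI-H69 by selection for resistance to doxorubicin, and the compound Supinoxin is studied here for its effect through DDX5, an RNA helicase. Confluent H69AR cells given 70 nM Supinoxin (3 libraries) were compared with H69AR cells without it (3 libraries). Both groups grew in RPMI medium with fetal bovine serum and are labelled WT in genotype, and neither the duration of treatment nor a vehicle for the untreated cells is given in the sources used here. The series asks which pathway carries the effect of Supinoxin in these cells. Whether replicates came from separate cultures is not stated, so a p-value covers the spread among these libraries alone, and that spread may be technical.

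In G1, D-type cyclins accumulate in response to growth signals, bind CDK4 or CDK6 and direct them to phosphorylate RB1 and its relatives. These pocket proteins hold E2F transcription factors, and their phosphorylation frees E2F to drive genes for DNA synthesis, among them the E-type cyclins, which bind CDK2 and carry the cell into S phase. Loss of RB1 function is a defining lesion of most small cell lung cancers, so the presence of its transcript does not tell whether a working protein is made.

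The promoters of CDK4, CDK6 and RBL1 are shown because CDK4 and CDK6, kinases with the same substrates, moved in opposite directions, and because RBL1 is a textbook E2F target that did not pass the test. Each is the 250 bases before the gene's start in RefSeq (GRCh38.p14), read 5′ to 3′ on the gene's strand (minus for all 3), at chr12:57752311-57752560 for CDK4, chr7:92836574-92836823 for CDK6 and chr20:37095998-37096247 for RBL1. Capitals mark an E-box (CACGTG, the MYC and MAX recognition sequence) or an E2F sequence (TTTCGCGC, TTTGGCGC, TTTCCCGC or TTTGCCGC), each searched on both strands.
CDK4: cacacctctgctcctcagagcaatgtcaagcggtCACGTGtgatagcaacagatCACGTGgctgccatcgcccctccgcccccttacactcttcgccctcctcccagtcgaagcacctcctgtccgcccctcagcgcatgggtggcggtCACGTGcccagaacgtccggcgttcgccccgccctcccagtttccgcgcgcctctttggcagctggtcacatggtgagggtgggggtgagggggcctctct
CDK6: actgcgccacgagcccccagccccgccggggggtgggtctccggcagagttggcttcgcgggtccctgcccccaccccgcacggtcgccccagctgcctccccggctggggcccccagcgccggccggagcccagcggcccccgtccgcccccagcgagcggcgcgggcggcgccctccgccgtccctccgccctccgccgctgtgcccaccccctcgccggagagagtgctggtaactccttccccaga
RBL1: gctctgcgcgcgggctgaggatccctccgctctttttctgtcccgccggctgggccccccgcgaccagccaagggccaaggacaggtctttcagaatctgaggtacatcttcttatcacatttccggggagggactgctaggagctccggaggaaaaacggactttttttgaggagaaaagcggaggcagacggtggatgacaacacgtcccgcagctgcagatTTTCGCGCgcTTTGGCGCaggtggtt
The CDK4 window held 3 E-boxes, beginning 216, 196 and 101 bases before the start, and no E2F sequence. Among all 35116 RefSeq windows of this length 6.34% held at least 1 E-box and 0.0797% held 3 or more. The RBL1 window held 2 E2F sequences, 26 and 16 bases before the start, where 2.79% of all windows held at least 1 and 0.122% held 2 or more. Neither motif was in the CDK6 window, in a second CDK6 window inside the gene, or in the windows of CCNE1, CCND3 or RB1. Only exact matches in the 250 bases were sought. A window without one may still have a variant site, or a site after the start. The CDK4 start in RefSeq lies 3703 bases inside the gene as GENCODE 44 draws it. The RB1 window lies 172706 bases from the start of the gene in GENCODE 44 and the 3 CCND3 windows lie 1669 to 111152 bases from theirs, so they represent internal starts. A window was not used for CCND1, CCND2, CCNE2 or CDK2. The part of these motifs in the changes of the members was not tested.

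With Supinoxin, the transcripts of CDK4, CCNE1, CCND3 and CCNE2 fell, by 2.01-, 2.0-, 1.71- and 1.57-fold, while CDK6 rose 1.71-fold (n = 3 each). CCND1, RB1 and RBL1 did not pass the test, and CCND2 and CDK2 were listed at 0 in every library. In bulk RNA, fewer cells in a cycle phase and less RNA per cell cannot be told apart. Of the 8 members that passed the filter on low counts, 1 was higher and 4 were lower by edgeR's quasi-likelihood test at a Benjamini-Hochberg adjusted p under 0.05, with a median log2 fold change of -0.37, against 0.00 over all genes tested. Over all 15947 genes tested, 48.6% were called, 23.4% higher and 25.2% lower, so 5 of 8 is near the background and is not a result about the members as a group. Of all genes tested 62.4% had groups that did not overlap, 31.3% higher and 31.1% lower, against 1 and 4 of the 8 members.

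**Figure D1:**
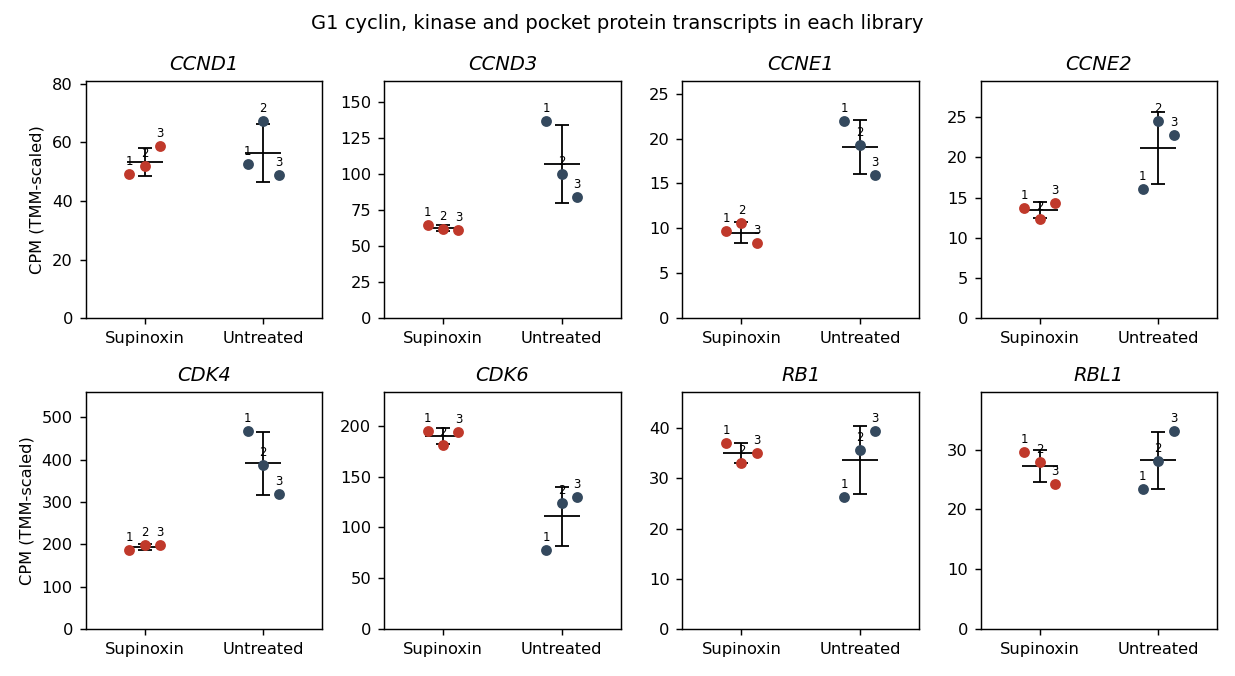
CPM (counts scaled to the library total adjusted by the trimmed mean of M values, TMM) of the 8 members with counts, by library; numbers are replicates, the wide bar is the mean and whiskers are the SD (n = 3). CDK4, CCNE1, CCND3 and CCNE2 are lower in every Supinoxin library than in any untreated library, CDK6 is higher, and CCND1, RB1 and RBL1 overlap.

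Libraries held 30136963 to 39402804 counts, and 1 CPM stands for 30.7 to 38.2 counts. Untreated replicate 1 stood apart from the other untreated libraries in several members, and each called member is given without it below. With library sizes in place of TMM factors the median log2 fold change of all genes shifted by 0.14, and changes below are given on the TMM scale. The 5 markers of the labelled epithelial cell type summed to 138 to 150 CPM with Supinoxin and 167 to 289 CPM untreated. Among them, KRT8 stood at 112 ± 5.01 CPM with Supinoxin and 165 ± 53.2 CPM untreated, EPCAM at 1.22 ± 0.196 and 10.3 ± 1.23 CPM (SD, n = 3 each), and CDH1 and KRT19 had 17 and 6 counts over all libraries. Of the neuroendocrine markers, NEUROD1 was listed at 0, and all 6 summed to 18.7 to 20.1 CPM with Supinoxin and 27.4 to 33.1 CPM untreated. Of the 4 tested, INSM1 and NCAM1 were lower (edgeR adjusted p = 0.00398 and 0.000991), and CHGA and SYP did not pass. INSM1 stood at 11.9 ± 0.413 CPM with Supinoxin and 19.6 ± 2.83 CPM untreated, and NCAM1 at 1.55 ± 0.209 and 4.49 ± 0.983 CPM (SD, n = 3 each). The 4 markers of the non-neuroendocrine state summed to 1143 to 1165 CPM with Supinoxin and 860 to 1210 CPM untreated, mostly VIM. Among them YAP1 rose 2.20-fold, to 78.5 ± 2.74 CPM with Supinoxin, against 35.6 ± 3.98 CPM untreated, and REST rose 1.73-fold, to 44.5 ± 4.19 CPM with Supinoxin, against 25.6 ± 6.25 CPM untreated (edgeR adjusted p = 0.000277 and 0.00728, SD, n = 3 each). VIM stood at 1032 ± 7.06 CPM with Supinoxin and 976 ± 184 CPM untreated (SD, n = 3 each) and did not pass (edgeR adjusted p = 0.690). POU2F3 had 2 counts over all libraries. The 6 leukocyte markers summed to 1.35 to 1.59 CPM with Supinoxin and 1.55 to 2.22 CPM untreated, with HBB among those listed at 0. The 6 stromal markers summed to 5087 to 6041 CPM with Supinoxin and 2249 to 3365 CPM untreated, led by COL1A1 (5234 and 2467 CPM on average), with ACTA2 listed at 0. The part of these marker differences in the results was not tested.

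CDK4 encodes the kinase partner of D-type cyclins that is widely expressed, and had the highest mean level of the members in each group, although CDK6 exceeded it in CPM in Supinoxin replicate 1 (ENSG00000135446, chromosome 12, 57747727 to 57756013, GRCh38, minus strand). It stood at 186, 199 and 197 CPM in the Supinoxin libraries, against 467, 388 and 318 CPM in untreated replicates 1, 2 and 3. All 3 Supinoxin libraries lay close together and below every untreated library, of which replicate 1 was the highest. The log2 fold change was -1.01 (SE 0.16, edgeR adjusted p = 0.00113), and -0.85 without untreated replicate 1 (adjusted p = 7.46e-05). In CDK4 44.2% of exonic bases are shared with TSPAN31 on the opposite strand, and the strand setting of the counting is not stated. If strand was not used, reads from those shared bases cannot be told apart. TSPAN31 itself stood at 21.5 ± 0.393 CPM with Supinoxin and 19.1 ± 0.784 CPM untreated (SD, n = 3 each).

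CDK6 encodes the other D-type cyclin kinase, known for its role in blood and stem cells (ENSG00000105810, chromosome 7, 92604921 to 92836573, minus strand). It stood at 195, 181 and 194 CPM with Supinoxin, against 77.9, 124 and 130 CPM in untreated replicates 1, 2 and 3. Every Supinoxin library exceeded every untreated one, and untreated replicate 1 was the lowest. The log2 fold change was 0.78 (SE 0.19, edgeR adjusted p = 0.00893) and 0.59 without untreated replicate 1 (adjusted p = 0.000181). CDK6 has the greatest exonic length of the 8 members with counts, 12239 bases, and the exons of CDK6 are 40.6% GC. With the trends of length and GC content removed from each library the log2 fold change was 0.47 (adjusted p = 0.00247). Its antisense neighbour CDK6-AS1 overlaps 0.7% of CDK6 exonic bases and stood at 2.63 ± 0.382 CPM with Supinoxin and 1.46 ± 0.0291 CPM untreated (SD, n = 3 each), a log2 fold change of 0.85 (edgeR adjusted p = 0.00893).

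Per kilobase of exon, CDK6 made up 20.9%, 18.7% and 19.9% of the summed CDK4 and CDK6 level in the Supinoxin libraries, against 4.04%, 7.50% and 9.38% in the untreated ones. The lowest Supinoxin share was above the highest untreated share. As the pair was chosen with its opposite changes known, the shares are given without a test. Scaled by the longest coding transcript in place of all exons, the shares averaged 13.5% ± 0.818 with Supinoxin and 4.54% ± 1.80 untreated (SD, n = 3 each). CDK4 thus remained the more abundant transcript of the pair per kilobase in every library.

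**Figure D2:**
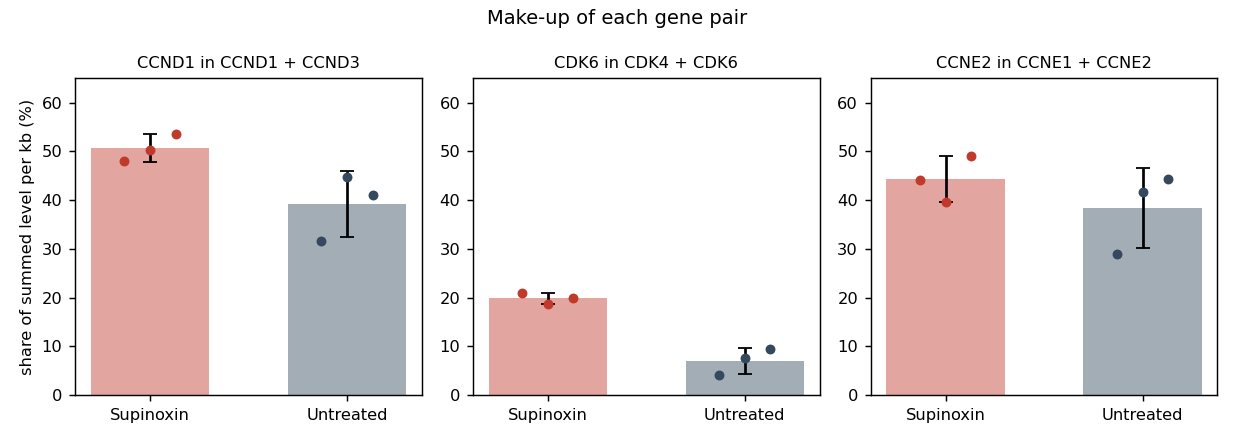
Share of CCND1, CDK6 and CCNE2 in the summed level per kilobase of exon of its pair, in percent; bars are means, whiskers SD (n = 3) and points libraries. CDK6 takes 18.7% to 20.9% of its pair with Supinoxin and 4.04% to 9.38% untreated, while the CCNE2 shares overlap between groups.

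CDK2, the kinase of the E-type cyclins (ENSG00000123374, chromosome 12, 55966781 to 55972789), was listed at 0 in all 6 libraries. Genes that every cell uses are also listed at 0 in all 6 libraries. Among them are RPL15, RPL32 and RPS4X for ribosomal proteins and EIF4A1 for a translation factor. A 0 in every library, for CDK2 or another gene named here, was thus not read as absence of its transcript. CDK2 shares no exonic base with another gene on its strand and 16.8% on either strand. Among protein-coding genes that share 10% to under 50% of exonic bases on either strand, 22.8% had no count in any library, and of those that share less 16.7% had none.

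Among the D-type cyclins, CCND3 fell and CCND1 did not pass. CCND3, the D-type cyclin known for its role in lymphocytes (ENSG00000112576, chromosome 6, 41934934 to 42050357, minus strand) stood at 64.7, 62.2 and 61.2 CPM with Supinoxin, against 137, 100.2 and 84.4 CPM in untreated replicates 1, 2 and 3. The groups did not overlap, and untreated replicate 1 was the highest. On the log2 scale it changed by -0.78 (SE 0.18, edgeR adjusted p = 0.00630), and -0.55 without untreated replicate 1 (adjusted p = 0.000861).

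CCND1, the cyclin most often raised by growth factor and Wnt signalling in epithelial tumours (ENSG00000110092, chromosome 11, 69641156 to 69654474, plus strand), stood at 49.3, 51.9 and 58.6 CPM with Supinoxin, against 52.6, 67.4 and 48.8 CPM untreated. The groups overlapped, with both the highest and the lowest value in untreated libraries. The difference did not exceed the replicate spread (log2 fold change -0.080, SE 0.15, edgeR adjusted p = 0.684), and its sign turned with library size alone (0.055) and on omission of untreated replicate 2 (0.077). CCND2 (ENSG00000118971, chromosome 12, 4269771 to 4305353) was listed at 0 in every library, and 12.5% of its exonic bases are shared with a gene on the same strand. The antisense gene CCND2-AS1 had 0.490 ± 0.0365 CPM with Supinoxin and 0.388 ± 0.207 CPM untreated (SD, n = 3 each).

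The share of CCND1 in the summed CCND1 and CCND3 level per kilobase of exon was 48.0%, 50.3% and 53.7% with Supinoxin, against 31.7%, 44.9% and 41.1% untreated. The lowest Supinoxin value lay above the highest untreated one, by a smaller margin than for the kinases. Scaled by the longest coding transcript the means were 32.4% ± 2.52 with Supinoxin and 23.3% ± 4.98 untreated (SD, n = 3 each), the exons of CCND3 summing to 5761 bases and its longest coding transcript to 2394.

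Both E-type cyclins, which activate CDK2 at the start of S phase and are themselves E2F targets, fell. CCNE1 (ENSG00000105173, chromosome 19, 29811991 to 29824312, plus strand) stood at 9.70, 10.6 and 8.33 CPM with Supinoxin, against 22.0, 19.3 and 16.0 CPM untreated, from 302 to 743 counts per library. Every untreated library lay above every Supinoxin library. Its log2 fold change was -1.0 (SE 0.17, edgeR adjusted p = 0.00152), and -0.88 without untreated replicate 1 (adjusted p = 0.000612).

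CCNE2 (ENSG00000175305, chromosome 8, 94879770 to 94896678, minus strand) stood at 13.7, 12.4 and 14.3 CPM with Supinoxin, against 16.1, 24.6 and 22.8 CPM in untreated replicates 1, 2 and 3. The groups did not overlap but lay close, with untreated replicate 1 nearest to the Supinoxin libraries. On the log2 scale the fold change was -0.65 (SE 0.18, edgeR adjusted p = 0.0137), and it was -0.81 without untreated replicate 1 (adjusted p = 0.000217). This call did not hold without Supinoxin replicate 1 or 2, with untreated replicate 2 left out, or on scaling by library size (adjusted p = 0.0502, 0.0663, 0.0533 and 0.0670), and the adjusted p ran from 0.000217 to 0.0670 over the alternatives. In CCNE2 37.1% of exonic bases are shared with genes on the opposite strand. Among these genes is INTS8, which stood at 57.1 ± 2.53 CPM with Supinoxin and 67.7 ± 12.8 CPM untreated (SD, n = 3 each). If strand was not used in counting, reads from those shared bases cannot be told apart. CCNE2 made up 44.2%, 39.6% and 49.0% of the summed E-type cyclin level per kilobase with Supinoxin, against 29.0%, 41.6% and 44.4% untreated, and these ranges overlapped.

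The pocket proteins, which bind E2F factors, did not pass the test. RB1 (ENSG00000139687, chromosome 13, 48303744 to 48599436, plus strand) stood at 37.0, 33.1 and 35.1 CPM with Supinoxin, against 26.2, 35.6 and 39.4 CPM untreated. The Supinoxin values lay inside the untreated range. Its log2 fold change, 0.057 by the fit to all libraries (SE 0.16, edgeR adjusted p = 0.788) turned to -0.086 when untreated replicate 1, the lowest library, was left out and to -0.096 with the length and GC offset.

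RBL1, which encodes p107 (ENSG00000080839, chromosome 20, 36996349 to 37095997, minus strand), stood at 29.5, 27.8 and 24.3 CPM with Supinoxin, against 23.5, 28.0 and 33.1 CPM untreated. The groups overlapped throughout. Its log2 fold change, -0.049 by the fit to all libraries (SE 0.16, edgeR adjusted p = 0.809) turned to 0.029 when Supinoxin replicate 3 was left out, to 0.078 when untreated replicate 3 was, and to 0.077 on scaling by library size alone, and it was -0.16 without untreated replicate 1. The third pocket protein gene, RBL2, which was not among the 10, stood at 51.2 CPM with Supinoxin and 38.5 CPM untreated and did not pass either (log2 fold change 0.41, SE 0.19, edgeR adjusted p = 0.104).

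**Figure D3:**
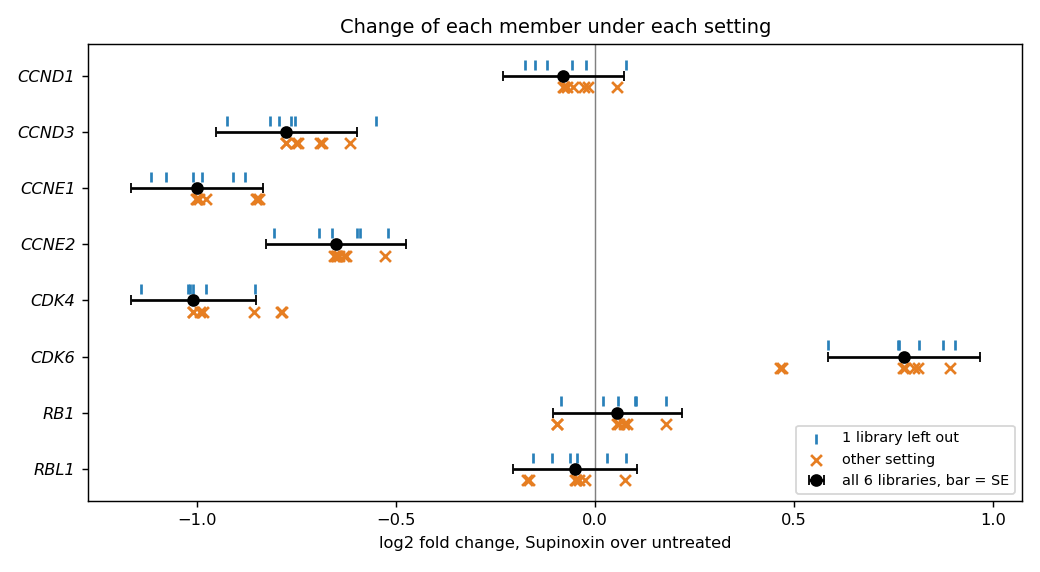
Log2 fold change of each member, Supinoxin over untreated: black points are the fit to all 6 libraries with its SE, blue bars leave out 1 library and orange crosses are other settings. CDK4, CCNE1, CCND3 and CCNE2 stay below 0 and CDK6 above 0 in all 13 alternatives, while CCND1, RB1 and RBL1 lie on both sides of 0.

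Levels per kilobase of exon set the members in a different order in each group. With Supinoxin, CDK4 led at 62.8 ± 2.25 CPM per kb, followed by CDK6 at 15.5 ± 0.640, CCND1 at 11.2 ± 1.00 and CCND3 at 10.9 ± 0.318 CPM per kb (SD, n = 3). Below them came RB1 at 5.45 ± 0.307, RBL1 at 4.57 ± 0.451, CCNE1 at 3.88 ± 0.460 and CCNE2 at 3.06 ± 0.225 CPM per kb (SD, n = 3). Among neighbours in this order, the library values of CCND1 and CCND3 and of RBL1 and CCNE1 overlapped. In untreated cells CDK4 stood at 126 ± 24.0, CCND3 at 18.6 ± 4.70, CCND1 at 11.8 ± 2.06 and CDK6 at 9.05 ± 2.34 CPM per kb (SD, n = 3). CCNE1 followed at 7.75 ± 1.23, RB1 at 5.24 ± 1.05, CCNE2 at 4.81 ± 1.02 and RBL1 at 4.73 ± 0.807 CPM per kb (SD, n = 3). The neighbours CCND1 and CDK6, CDK6 and CCNE1, RB1 and CCNE2, and CCNE2 and RBL1 overlapped there. By mean level CDK6 thus followed CDK4 directly with Supinoxin, while CCND3 and CCND1 came between them in untreated cells. Scaled by its longest coding transcript CCND3 stood above CDK6 with Supinoxin too.

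Untreated replicate 1 deviated from the other untreated libraries in both directions. Against the mean of the other untreated libraries, it was higher in CCND3, CDK4 and CCNE1 by 0.58, 0.41 and 0.33 on the log2 scale. It stood at -0.71 in CDK6, -0.56 in CCNE2, -0.51 in RB1, -0.38 in RBL1 and -0.12 in CCND1 relative to them on the same scale. The first 3 have exons of 50.4% to 59.3% GC and the next 4 of 38.3% to 41.2% GC, while CCND1, at 56.0% GC, does not follow that division. The part of GC content in the calls was not tested beyond the offset, with which CDK4 stood at -0.79, CCNE1 at -0.85, CCND3 at -0.69, CCNE2 at -0.65 and CDK6 at 0.47 (log2 fold change), all still called.

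Inhibitors of these kinases, in the CIP/KIP family (CDKN1A, CDKN1B and CDKN1C) and the INK4 family (CDKN2A, CDKN2B, CDKN2C and CDKN2D), gave 2 lower and 0 higher of 5 tested, with a median log2 fold change of -0.20. As 25.2% of all genes tested were lower and 23.4% higher, this count was not read as a result about the inhibitors. CDKN1A, the p53-induced inhibitor p21, fell 1.87-fold, to 70.2 ± 1.72 CPM with Supinoxin, against 132 ± 27.6 CPM untreated (edgeR adjusted p = 0.00209, n = 3 each). Its log2 fold change, -0.91 in the fit to all libraries, ran from -1.05 to -0.59 over the alternatives and stayed called. CDKN1C, which encodes p57, stood at 2.18 ± 0.200 CPM with Supinoxin and 4.26 ± 1.62 CPM untreated (SD, n = 3 each), a log2 fold change of -0.97 (edgeR adjusted p = 0.0193). That call was lost without Supinoxin replicate 1 or 2 and without untreated replicate 2 (adjusted p = 0.0692, 0.0627 and 0.0627). It was also lost with the length and GC offset, at -0.49, and with the offset and a replicate block, at -0.47 (adjusted p = 0.0545 and 0.0854). CDKN1B, which encodes p27, stood at 85.4 ± 4.95 CPM with Supinoxin and 80.2 ± 1.14 CPM untreated, and CDKN2C, which encodes p18, at 99.6 ± 0.886 and 115 ± 22.7 CPM (SD, n = 3 each). CDKN2D, which encodes p19, had a log2 fold change of 0.50 (edgeR adjusted p = 0.0844), with 12.5 ± 0.434 CPM with Supinoxin and 8.83 ± 2.82 CPM untreated (SD, n = 3 each). It passed in 6 of 13 alternatives. Without untreated replicate 1 it stood at 0.77 (adjusted p = 0.00270), with library size alone at 0.66 (0.0180), without the filter at 0.53 (0.0451) and with the replicate block at 0.55 (0.0484). With the length and GC offset it stood at 0.96 (adjusted p = 0.000233), and with offset and block at 0.97 (adjusted p = 5.44e-05). CDKN2A and CDKN2B were listed at 0 in every library, which, as for CDK2, was not read as absence of their transcripts.

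Genes for E2F factors, their DP partners, RBL2 and the MuvB complex with MYBL2, through which pocket proteins act, were lower for 7 of the 15 tested and higher for 2 (median -0.37, log2). The shares over all genes tested were 25.2% lower and 23.4% higher. E2F1, an activator that RB1 holds in G1, fell 2.63-fold (edgeR adjusted p = 0.000809), whereas E2F3, another activator, rose 1.78-fold and LIN54, the DNA-binding MuvB subunit, rose 2.03-fold (adjusted p = 0.00255 and 0.000910). The number that fell was 2 without any single Supinoxin library and 4 without untreated replicate 2. The log2 fold change of E2F1, -1.40 in the fit to all libraries, ran from -1.58 to -0.95 over the alternatives and stayed called. E2F8 and LIN37 were listed at 0.

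Genes of cyclin and inhibitor turnover, mostly subunits of cullin ubiquitin ligases, fell in 6 of 14 and rose in 2 (median -0.26), so that 8 of 14 were called, near the background of 48.6%, and 4 fell without any 1 Supinoxin library. FBXO4, an F-box protein reported to target cyclin D1, fell 2.32-fold, and SKP1 and RBX1, core ligase subunits, fell 2.06- and 1.97-fold (edgeR adjusted p = 0.000389, 0.00123 and 0.00147). Of 7 genes that activate or restrain the kinases, 2 rose and 1 fell (median -0.20), against 23.4% higher and 25.2% lower of all genes tested. That count was not read as a result about the list. WEE1, an inhibitory kinase, rose 1.64-fold and CDC25B, an activating phosphatase, rose 1.34-fold, while CDC37, the chaperone that loads CDK4 onto HSP90, fell 1.56-fold (edgeR adjusted p = 0.00160, 0.0312 and 0.0143). The call of CDC37 was lost when any 1 Supinoxin library was left out (adjusted p = 0.0508 to 0.0619) and with the length and GC offset together with the replicate block, at -0.26 (adjusted p = 0.0898). With the offset alone CDC37 stood at -0.27 (log2, adjusted p = 0.0427). The call of CDC25B was lost when any library but untreated replicate 1 was left out (adjusted p = 0.0608 to 0.123) and with the replicate block (adjusted p = 0.0647).

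Genes switched on at the G1/S border are largely E2F targets. Of the 23 tested, 17 were lower and 1 higher (median -0.80, log2), against 25.2% lower and 23.4% higher of all genes tested. The 3 with the smallest p were GINS2 and PCNA, parts of the replication machinery, and SLBP, which binds histone mRNA, at log2 fold changes of -1.57, -1.38 and -1.13 (edgeR adjusted p = 0.000105, 0.000118 and 0.000197). CCNA2, the S and G2 cyclin, was the member that rose, 1.97-fold (adjusted p = 0.00100). Mitosis genes went the other way, with 10 of 15 higher and 1 lower and a median of 0.53, beside the same shares of all genes. Both lists were chosen with earlier results of these data known, and no list test was run. ASPM, MKI67 and CENPF rose 4.14-, 3.39- and 2.65-fold (edgeR adjusted p = 0.000114, 0.000130 and 0.000277), and CDK1, the mitotic kinase, fell 1.57-fold (adjusted p = 0.00308). On the log2 scale the rises of ASPM, MKI67 and CENPF were 2.05, 1.76 and 1.40 in the fit to all libraries. Over the alternatives they went down to 1.70, 1.40 and 1.07, below the lows with 1 library left out (1.87, 1.62 and 1.27), and stayed called. Without untreated replicate 1 the counts were 19 lower and 1 higher for G1/S genes and 13 higher and 1 lower for mitosis genes. Without any 1 Supinoxin library 15 or 16 G1/S genes were lower, and 7 or 8 mitosis genes were higher.

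**Figure D4:**
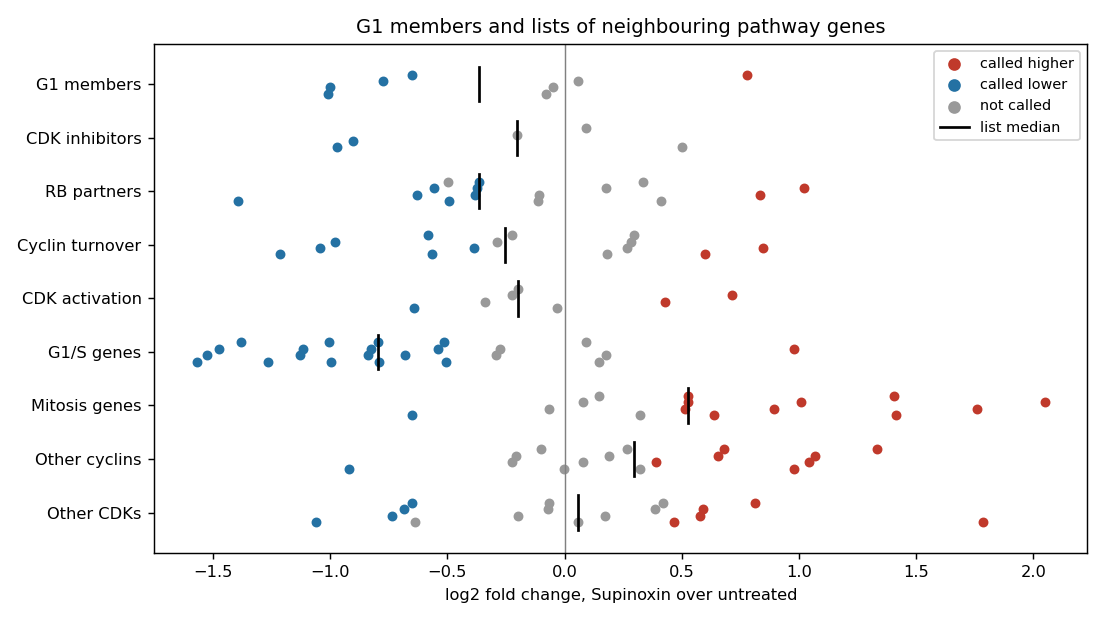
Log2 fold change, Supinoxin over untreated, of each tested gene in the 10-gene G1 group and in 8 lists of neighbouring genes; vertical bars are list medians and colours give the call at an adjusted p under 0.05. The G1/S list lies mostly below 0 (median -0.80) and the mitosis list mostly above it (median 0.53), while the G1 members fall on both sides.

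The cyclins outside G1 gave 7 higher and 1 lower of 16 tested (median 0.29), and 8 of 16 called is near the 48.6% of all genes tested. The number higher was 4 without Supinoxin replicate 1. CCNG2, an atypical cyclin linked to growth arrest, rose 2.52-fold, and CCNF, a cyclin that is an F-box protein, rose 2.06-fold (edgeR adjusted p = 0.000121 and 0.000831). CDKs and CDK-like kinases outside G1 gave 5 higher and 4 lower of 17 (median 0.06), against 23.4% and 25.2% of all genes tested. CDK5, known from neurons, fell 2.09-fold (edgeR adjusted p = 0.00175). Without untreated replicate 1, 7 of the kinases were higher and 5 lower, while without any 1 Supinoxin library or without untreated replicate 2, 3 were higher. CCNA2 stands in both the G1/S and cyclin lists, CDK1 in the kinase and mitosis lists.

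Across the 6 libraries the genes closest in pattern to 4 members were found among 8937 named genes averaging 10 CPM or more, by the mean absolute difference of centred log2 CPM. TIMP2 and HDAC3 were closest to CCND1 (0.04 for both), MORN2 and MAPKAPK3 to CCNE1 (0.05 and 0.06), GOLGA4 and MON2 to CDK6 (0.01 and 0.02), and MTMR6 and DHX36 to RB1 (0.0048 and 0.02). GOLGA4 and MON2, with log2 fold changes of 0.79 and 0.74, shared with CDK6 the low value in untreated replicate 1 as well as the rise. As they were chosen for their likeness over these same libraries, this sharing follows from the choice.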

How the data were processed

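RNA from 3 Supinoxin and 3 untreated H69AR libraries was analysed from 1 deposited table of counts per Ensembl gene, whole numbers that the authors had not normalized, with columns matched to samples by name. Columns named WT were taken as untreated, since the others name Supinoxin. The submitters' processing notes name the build GRCh38 and the tools featureCounts, STAR, fastp, edgeR, DESeq2 and Trim Galore 0.4.4, with no order or role. The sources used here do not give the annotation release, the strand setting or the treatment of multi-mapping reads. Symbols, positions, exonic lengths and GC content came from GENCODE 44 (GRCh38), which matched 60463 of 60605 identifiers, and promoter sequences from RefSeq (GRCh38.p14), whose windows of 6 members were used.

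Counts were tested in R 4.3.3 with edgeR 4.0.16 (filterByExpr, TMM, robust glmQLFit and glmQLFTest, 2-sided, treatment as the single term). P-values were adjusted by Benjamini-Hochberg over all 15947 genes, with a threshold of 0.05, and the fit was tested on simulated data. SE is that of the fit, and log2 CPM used a prior count of 2. The biological coefficient of variation was 17.0%, and total counts were 30136963 to 39402804. Replicates of a group differed by more than sampling noise. Chi-square per degree of freedom was 4.68 to 8.03 among Supinoxin libraries and 31.3 to 126 among untreated ones, while the fit took a single dispersion per gene for both groups. Same-numbered libraries deviated from their group means with correlations of -0.13, -0.04 and -0.03, so the numbers were not taken to pair them. Alternatives were DESeq2 1.42.0, library size alone, 2 other filters, a replicate block, a length and GC offset (natural splines, 5 degrees of freedom each), both together, and leaving out each library.

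Members and lists were chosen with earlier results of these data known. Named genes were all members and inhibitors, the 3 smallest p of each other list, and the 2 closest in pattern to each of 4 members. RBL2, E2F8, LIN37, YAP1, REST, the ribosomal genes and the overlapping genes were named after their values were seen. A few genes that these rules or lists hold are not reported here.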

Additional observations from a re-analysis of the deposited data

How the results depend on the processing

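The 5 called members kept their direction in all 13 alternatives, and CDK4, CCNE1, CCND3 and CDK6 their call too. Counts over all genes ran from 2556 to 4334 higher and from 2789 to 4860 lower. The log2 fold change of CCNE2 was -0.53 with library size alone and -0.81 to -0.52 when 1 library was left out. Values without a call in the fit to all libraries changed sign with library size alone for CCND1 (0.055), RBL1 (0.077) and TIMP2 (0.028). They did so with the length and GC offset, and with it and the replicate block, for RB1 (-0.096 and -0.095), CDKN1B (-0.19 and -0.18), CDKN2C (0.0043 and 0.0080), MTMR6 (-0.052 and -0.050) and DHX36 (-0.22 in both). The adjusted p of DHX36 ran from 0.0288 to 0.832 over the alternatives, so its lowest value passed the threshold. Leaving out 1 library gave -0.18 to 0.077 for CCND1, -0.16 to 0.078 for RBL1, -0.086 to 0.18 for RB1, -0.21 to 0.061 for TIMP2, -0.096 to 0.18 for MTMR6 and -0.064 to 0.21 for DHX36. With the longest coding transcript as length, the CCND1 share was 32.4% with Supinoxin and 23.3% untreated and the CDK6 share 13.5% with Supinoxin. Of the G1/S genes 2 rose with the offset, blocked or not. Of the inhibitors, 1 rose in those fits, with library size alone, without the filter and with the block, and 1 fell with the offset, blocked or not. Of the kinase activators and restrainers, 1 rose with the block, and 2 fell with the filter of 1 CPM, 3 with the offset and 2 with the offset and block. Of the other cyclins 2 fell with the offset, blocked or not. Of the RB partners 3 fell with library size alone, 4 without the filter and 4 with the block. With 1 library left out, 0 to 1 inhibitors rose and 1 to 2 fell, 1 to 2 kinase activators and restrainers rose and 0 to 3 fell, 3 to 7 other CDKs rose, 4 to 8 other cyclins rose and 1 to 2 fell, and 2 to 8 RB partners fell. The cause was not tested. With the replicate block 3588 genes were higher and 3650 lower, and no member's call changed (CCNE2 -0.63, edgeR adjusted p = 0.0133), but the numbers did not pair the libraries. With 302 to 743 counts a library, CCNE1 had the fewest reads of the members with counts. These alternatives do not address genes listed at 0.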
